A study of Drosophila melanogaster with 12 samples.

Results

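Adult tracheae of *Drosophila melanogaster* were compared with larval tracheae and with whole flies at once, to find the genes whose transcript level in the adult tracheae lay above, or below, each of these groups by itself. The series held 12 RNA libraries, 4 per group, all titled wildtype and of genotype w1118. The adult tracheae had been dissected by hand from the head, thorax and abdomen of females aged 5 to 7 days, the larval tracheae from 3rd instar larvae of mixed sex that had not yet begun to wander, and the whole flies were adult females, with 3 animals pooled in each library. The 4 adult trachea libraries were set against the mean of the larval trachea and whole fly groups in 1 model with 3 groups, and then against each group alone. Of 10242 genes tested, 569 were called higher in adult tracheae than in larval tracheae and also higher than in whole flies, and 109 were called lower than in both. These genes are named "above both" and "below both" in what follows. Both comparisons rest on the same 4 adult trachea libraries. In the model each gene had 1 estimate of spread, shared by all 12 libraries. Correlations between libraries were lower within adult tracheae (0.765 to 0.865) than within larval tracheae (0.892 to 0.922) or whole flies (0.882 to 0.924). The p-values therefore do not measure the spread of adult tracheae alone, and the effect of this sharing on the calls was not tested. They cover only spread between libraries, since nothing states that the pools were independent rearings.

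Tracheae are epithelial tubes that bring air from openings in the body wall to every organ, and a chitinous cuticle with spiral thickenings lines their lumen. Most larval tubes are broken down and rebuilt at metamorphosis, and the adult system adds air sacs in the head and thorax. Fine tracheal branches run along and into flight muscle, brain, fat body, gut and ovary. A library of dissected tracheae is a bulk sample, so fewer cells of a type and less RNA per cell cannot be told apart in any value given here.

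In the contrast with the mean of both groups, 1961 genes (19.1% of those tested) were higher in adult tracheae and 482 (4.71%) were lower (edgeR quasi-likelihood test, adjusted p under 0.05 and a fold above 1.5). Against larval tracheae alone 2012 genes (19.6%) were higher and 1037 (10.1%) lower, and against whole flies alone 1610 (15.7%) were higher and 852 (8.32%) lower. Of the 1961 higher genes, 569 were above both, 919 were called higher than larval tracheae but not than whole flies (34 of them lower than whole flies), 357 higher than whole flies but not than larval tracheae (12 of them lower than larval tracheae) and 116 higher than neither. Of the 482 lower genes, 109 (22.6%) were below both. The genes above both were 5.56% of all genes tested and those below both 1.06%, which are the shares against which the counts of each gene group are read. Without 1 library the first count ran from 356 (without whole fly replicate 2) to 667 (without adult trachea replicate 4) and was also low, at 358 and 366, when adult trachea replicate 3 or whole fly replicate 3 was left out. The count below both ran from 69 (without whole fly replicate 2) to 174 (without adult trachea replicate 4) and was 70 when adult trachea replicate 3 or whole fly replicate 3 was left out.

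The genes above both were prominent in adult tracheae and nearly silent in larval ones. Their median level was 32.02 RPKM in adult tracheae, 0.242 in larval tracheae and 5.53 in whole flies, where RPKM is exon reads scaled to exon length and library size, and whole flies were the nearer group for 431 of the 569. All tested genes had medians of 7.18, 5.17 and 8.80 RPKM. In 466 of the 569 all 4 adult trachea libraries lay above all 8 others in TMM-scaled counts, a pattern that 7.46% of the tested genes showed. Larval tracheae had 0 reads for 129 of them, whole flies for 46 and both groups for 31. In the adult trachea libraries these genes took 38.0, 25.96, 55.9 and 26.2% of the exon reads in replicates 1 to 4, against 0.991 to 1.17% in larval tracheae and between 6.03 and 7.51% in whole flies. The genes below both had medians of 12.9 RPKM in adult tracheae, 34.7 in larval tracheae and 47.6 in whole flies. Only 19 of them were more than 4 times lower than in the nearer group, against 421 of the genes above both that were more than 4 times higher. These medians and fold counts come from the same reads that defined the sets. A call below both needs reads in both other groups, whereas a call above both does not, so the levels partly follow from the choice.

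**Figure D1:**
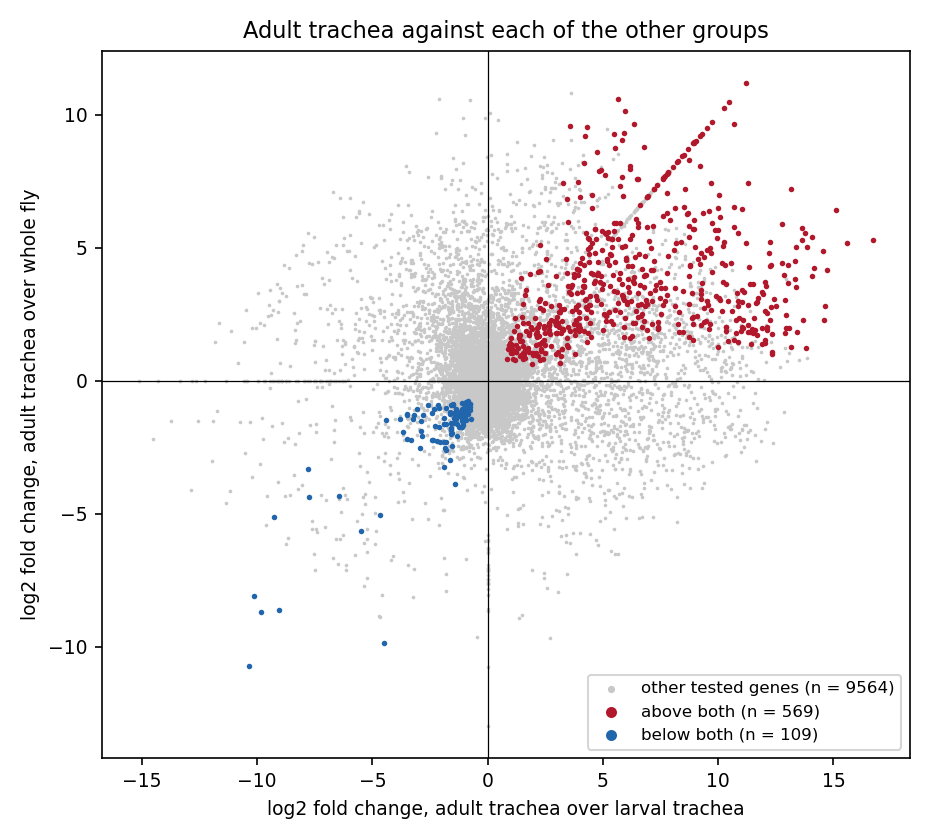
Each point is 1 of the 10242 genes tested, placed by its log2 fold change of adult over larval tracheae (horizontal axis) and of adult tracheae over whole flies (vertical axis). The 569 genes above both (red) fill the upper right of the plot, 194 of them more than 16 times higher than in the nearer group, and the 109 below both (blue) lie at the lower left, most of them near the origin.

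The adult trachea libraries were less alike than those of the other groups. The exon reads of a library numbered from 4703048 up to 13865281 in adult tracheae, between 4573842 and 7531621 in larval tracheae and between 5082949 and 9379722 in whole flies. Correlations of scaled log2 counts between libraries of a group were from 0.765 up to 0.865 in adult tracheae, between 0.892 and 0.922 in larval tracheae and between 0.882 and 0.924 in whole flies, and adult trachea and whole fly libraries reached 0.831. The 20 highest genes took 51.3% of the exon reads of adult trachea replicate 3 and 19.3 to 33.4% in the other 3, and the TMM factor was lowest for replicate 3 (0.675). Replicate 3 was the highest adult trachea library for 288 of the 569 genes above both, and replicate 4 the lowest for 253. The sample names inside the files used letters that seemed to belong to other groups, so the titles were checked against marker genes. *Lcp65Ab2*, a larval cuticle protein gene, had 0 reads in all adult trachea and whole fly libraries and 285 to 2297 RPKM in larval tracheae. *Cp15*, an eggshell gene, stood at 2314 to 4435 RPKM in whole flies and at most 0.951 in larval tracheae. Both matched the titles of the larval libraries. In adult tracheae *Cp15* was at 354, 189, 22.1 and 7386 RPKM, so neither gene told adult tracheae from whole flies. The tracheal genes *trh* and *btl*, given below, set these groups apart as titled.

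Genes of a tracheal epithelium list mostly stood above whole flies or below larval tracheae. Of 21 tested, 13 exceeded the whole fly level, against 15.7% of all genes, and 13 were lower than in larval tracheae, against 10.1%. The count above both or below both was 0, also at an unadjusted p under 0.05 and by DESeq2. At the shares of 5.56% and 1.06% among all genes, a list this small can hold 0 of either. *trh*, which encodes the transcription factor that sets tracheal fate, was read at 3.54, 1.88, 2.59 and 1.29 RPKM in adult tracheae, at 3.30 to 6.538 in larval tracheae and not at all in whole flies. The adult level was at least 175 times that of whole flies and did not differ by the test from that of larval tracheae (log2 fold change -1.08, standard error (SE) 0.53, adjusted p = 0.151). *btl*, the gene of the FGF receptor that guides tracheal branching, was at 2.35, 5.20, 6.59 and 3.55 RPKM in adult tracheae, between 37.3 and 53.6 in larval tracheae and between 0 and 0.788 in whole flies. It was therefore 10.6-fold lower than in larval tracheae (adjusted p = 0.000959) and 18.004-fold higher than in whole flies (adjusted p = 0.00157), with no overlap between any of the groups. *vvl*, another transcription factor gene of the tracheal primordia, was 2.99-fold lower and 6.74-fold higher. The summed level of the list was between 142 and 227 RPKM in adult tracheae, between 1085 and 2482 in larval tracheae and between 93.1 and 128 in whole flies. Of the 15 tested genes of chitin synthesis and assembly, 13 were lower than in larval tracheae and 4 higher than in whole flies. *Gasp* (a chitin-binding protein of the tracheal cuticle) was among both sets at 29.7-fold lower and 3.93-fold higher. The summed list was between 97.6 and 117 RPKM in adult tracheae, inside the whole fly range of 93.1 to 136. In larval tracheae it was between 1420 and 2647.

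The most abundant transcripts above both came from small genes of little known function, which stood highest in adult trachea replicates 1 and 3. *whe* was read at 61717, 4737, 212090 and 24704 RPKM in adult tracheae, between 2.57 and 7.61 in larval tracheae and between 3326 and 4714 in whole flies. The lowest adult trachea library, replicate 2, thus stood barely above the highest whole fly library. The fitted level was 14712-fold that of larval tracheae (adjusted p = 6.9e-06) and 33.1-fold that of whole flies (log2 fold change 5.05, SE 0.98, adjusted p = 0.00376). *lcs*, which lies near *whe* on the X chromosome, followed it at 31878, 2677, 121696 and 10009 RPKM in adult tracheae against 1701 to 3657 in whole flies. Its replicate 2 lay inside the whole fly range, and the fitted level was 32.4-fold that of whole flies (adjusted p = 0.00466). *CG16826* had the same order of libraries at 33317, 2158, 116902 and 12064 RPKM, 46.5-fold the whole fly level, and so had *CG45080* (20210, 1753, 41768 and 3894 RPKM, 41.9-fold), *CG34212* (8911, 681, 18414 and 2274 RPKM, 39.1-fold) and, except for its replicates 1 and 4, *CG13947* (1247, 269.8, 24299 and 1612 RPKM, 53.6-fold). All 4 were at most 5.11 RPKM in any larval library. Each of these 6 genes was called above both under every alternative that gave it an adjusted p (DESeq2 gave none for *CG13947*).

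The yolk protein genes were among the 10 most abundant genes above both. *Yp1*, *Yp2* and *Yp3* encode the yolk proteins that the adult female fat body and the follicle cells of the ovary secrete. *Yp3* was at 27502, 22022, 18055 and 36279 RPKM in adult tracheae, between 1.77 and 4.27 in larval tracheae and between 8714 and 9366 in whole flies. It was 3.92-fold the whole fly level (log2 fold change 1.97, SE 0.30, adjusted p = 0.000931), and the groups did not overlap. *Yp2* was 5.50-fold the whole fly level. *Yp1*, less even among the libraries at 37746, 12337, 10435 and 15213 RPKM, was 11.6-fold that level, with 43.9% of its adult trachea reads placed uniquely. *Nplp2*, a gene of a neuropeptide-like precursor, stood at 15794, 12453, 4670 and 9798 RPKM, 3.25-fold the whole fly level (adjusted p = 0.00770) and 77.0-fold that of larval tracheae.

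**Figure D2:**
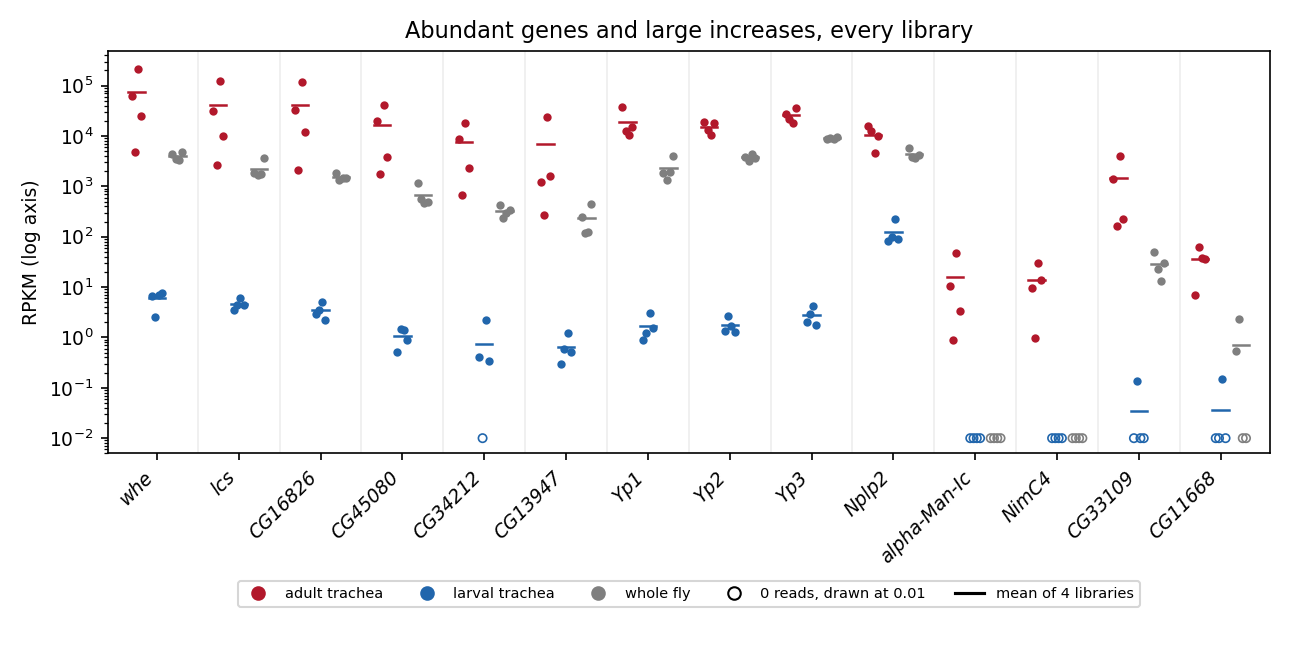
RPKM on a log axis in each of the 12 libraries for the 10 most abundant genes above both and 4 with large increases. Points are libraries, bars the mean of 4, and open points libraries with 0 reads. The 4 adult trachea points of *whe*, *lcs* and *CG16826* run from 2158 to 212090 RPKM, those of *Yp2* and *Yp3* from 10346 to 36279.

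The 12 largest increases over the nearer group were taken among genes with no overlap in scaled counts and a mean of at least 10 RPKM in adult tracheae. Some genes outside this choice had larger increases. Of the 12 genes, 4 had 0 reads outside the adult tracheae. *alpha-Man-Ic*, an alpha-mannosidase gene, was read at 10.7, 0.898, 47.8 and 3.38 RPKM in adult tracheae, with 0 reads in the 8 other libraries. Against a floor of 3 reads over a group, which allows for counting error only, it was at least 284-fold higher than in larval tracheae and at least 437.9-fold higher than in whole flies (adjusted p = 0.00726 and 0.0108). *NimC4*, which encodes a receptor for the uptake of dying cells, likewise had 0 reads elsewhere and 9.56, 0.966, 29.9 and 13.9 RPKM in adult tracheae (at least 172-fold and 265-fold higher), but none of its reads was placed uniquely, and such reads may belong to another annotated gene at the same place or to a copy. *CG33109* was at 1393, 163, 4068 and 224 RPKM in adult tracheae, had 1 read in larval tracheae and reached 50.1 RPKM in whole flies, an 86.4-fold difference (adjusted p = 0.00195). *CG11668* showed 6.92, 61.7, 37.2 and 36.3 RPKM, 61.7-fold the whole fly level, and *CG9377* 1.80, 16.1, 17.3 and 13.2 RPKM, 51.3-fold. *CG43678* was at least 31.8-fold higher than in larval tracheae, from reads of which none was unique, and lost its call in 8 of the 10 fits without 1 library that tested it (adjusted p = 0.0525 to 0.0671).

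Bomanins are short secreted peptides induced through the Toll pathway, and they are listed here with other immune-induced peptides. Of 19 tested members, 17 were above both, against 5.56% of all genes, with a median log2 fold change of 11.30 over larval tracheae and 3.69 over whole flies (0.12 and 0.09 for all genes). *IM2* (BomS2) was read at 842, 3124, 149 and 746 RPKM in adult tracheae, not at all in larval tracheae and at 52.6 to 105 RPKM in whole flies. It was at least 3223-fold higher than in larval tracheae and 17.99-fold higher than in whole flies (log2 fold change 4.17, SE 0.68, adjusted p = 0.00253), and the groups did not overlap. *IM4* (Dso1, daisho 1) followed with 73.3, 299, 9.93 and 56.5 RPKM, 20.3-fold the whole fly level. Replicate 2 was the highest adult trachea library for both. *IM18* and *IM23* (BomBc1) were among the 12 genes with large increases chosen above, and their reads were more unequal. *IM18* stood at 62.9, 1857, 15.4 and 2.39 RPKM, with none of its reads unique, and *IM23* at 6.24, 345, 1.71 and 36.001. *IM23* was 174-fold above whole flies but not called without adult trachea replicate 2 (adjusted p = 0.0927), and without that library 10 bomanins and immune-induced peptides were above both. Of the 17, 10 lie side by side on chromosome 2R, the longest run of adjacent tested genes in either set.

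Antimicrobial peptides are the effectors that fat body and epithelia release upon infection. Of 15 tested, 8 were above both (*CecC*, *DptA*, *Mtk*, *DptB*, *AttC*, *Dro*, *AttD* and *AttB*), with medians of 8.56 over larval tracheae and 5.77 over whole flies on the log2 scale. *AttC*, an attacin gene, was read at 408, 5780.2, 50.3 and 32.1 RPKM in adult tracheae, up to 1.94 in larval tracheae and between 9.13 and 36.4 in whole flies. Its fitted level was 91.5-fold that of whole flies (log2 fold change 6.52, SE 1.44, adjusted p = 0.00759), although replicate 4 lay within the whole fly range in RPKM. *CecC*, a cecropin gene, had 21.2, 135, 0.173 and 0.199 RPKM and 0 reads elsewhere (at least 104-fold and 160.1-fold higher), and lost its call in 8 of the 10 fits without 1 library that tested it (adjusted p = 0.0621 to 0.0768). *DptA*, a diptericin gene, at 100.4, 5945, 55.0 and 3.72 RPKM, was not called without adult trachea replicate 2 (adjusted p = 0.105) or whole fly replicate 2 (0.0514). Without adult trachea replicate 2 only 2 antimicrobial peptides were above both. The count was 4 without whole fly replicate 2 and 5 when whole fly replicate 1, 3 or 4 was left out. The summed level of the list was 4172, 46352, 1427 and 922 RPKM in adult tracheae, between 22.0 and 40.4 in larval tracheae and between 1334 and 2124 in whole flies, so replicates 3 and 4 lay near or under the whole flies.

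Other immune genes above both were fewer. *PGRP-SB1*, of a secreted peptidoglycan-degrading amidase, was read at 192, 883, 15.7 and 48.5 RPKM in adult tracheae, 0 in larval tracheae and between 2.97 and 25.4 in whole flies (22.9-fold over whole flies, adjusted p = 0.0155), one of 2 above both among 15 peptidoglycan recognition genes. *TotM* and *TotA*, Turandot stress peptides that the fat body secretes into the haemolymph, were 36.8-fold and 13.6-fold above whole flies. *TotM* was at 217, 298, 17.3 and 31.8 RPKM against 1.26 to 8.73 in whole flies, and *TotA* was not called without adult trachea replicate 2 (adjusted p = 0.0610). In the Toll and Imd cascades 2 of 25 genes were above both, near the share of 5.56% among all genes. They were *SPE*, the protease that cleaves the Toll ligand precursor, and *nec*, a serpin that restrains Toll activation. *SPE* was at 142, 266, 31.9 and 82.6 RPKM against between 9.75 and 32.7 in larval tracheae and between 34.4 and 52.1 in whole flies (4.03-fold over whole flies, adjusted p = 0.0105). In RPKM its replicate 3 lay inside the range of larval tracheae and under all whole fly libraries. Its call was lost in the 3 limma fits on RPKM. *nec* was 6.06-fold over whole flies, with 5.91% of its reads unique and no call on unique reads.

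Haemocytes are the blood cells of the fly. Of 17 tested haemocyte markers, 8 were above both, 10 were higher than in larval tracheae and 12 higher than in whole flies. The 8 were *NimC4*, *NimC1*, *lectin-24Db*, *Sr-CI*, *srp*, *Hml*, *Ppn* and *PPO2*, and the count was 8 to 10 without 1 library. *NimC1*, a phagocytosis receptor of plasmatocytes, was read at 51.4, 58.1, 15.998 and 22.5 RPKM in adult tracheae, between 2.26 and 4.16 in larval tracheae and between 1.12 and 2.77 in whole flies. All adult trachea libraries thus lay above all others, 10.6-fold over larval tracheae (log2 fold change 3.41, SE 0.43, adjusted p = 4.13e-05) and 24.02-fold over whole flies (adjusted p = 0.000119). *Hml*, of the clotting protein hemolectin, was at 4.83, 10.3, 6.25 and 4.79 RPKM and was 3.56-fold and 16.1-fold higher. *PPO2*, the prophenoloxidase of crystal cells, at 76.3, 39.0, 55.1 and 87.1 RPKM was 2.75-fold and 14.7-fold higher, and *Sr-CI*, a scavenger receptor gene, 4.87-fold and 34.7-fold. In these genes larval tracheae were the nearer group. The summed level of the list was between 246 and 409 RPKM in adult tracheae, between 52.3 and 111 in larval tracheae and between 50.2 and 59.1 in whole flies, and none of its tested markers was at 0 in adult tracheae. The part of these cells, and of the other cell types whose summed markers are given below, in the differences of other genes was not tested.

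The fat body is the insect organ of storage and of plasma protein secretion, and 8 of its 19 tested markers were above both (6 to 10 without 1 library), the 3 yolk protein genes included, while 3 were lower than in larval tracheae. *apolpp*, which encodes the main lipid carrier of the haemolymph, was read at 76.8, 114, 92.4 and 26.03 RPKM in adult tracheae, between 0.0473 and 3.37 in larval tracheae and between 1.69 and 6.35 in whole flies. The groups did not overlap, and the fold was 24.7 over whole flies (log2 fold change 4.62, SE 0.96, adjusted p = 0.00536). *FASN1*, the fatty acid synthase gene, was even among libraries at 60.9, 78.2, 59.3 and 60.5 RPKM, 4.17-fold over whole flies and 15.0-fold over larval tracheae. *NLaz*, a lipocalin gene, stood at 513, 162, 1668 and 292 RPKM, 11.4-fold over whole flies. *Ilp6*, an insulin-like peptide gene of the fat body, reached 13.001 RPKM with 7.52% of its reads unique, and was not called when adult trachea replicate 2 or whole fly replicate 3 was left out (adjusted p = 0.0527 and 0.0514) or on unique reads alone. *AkhR*, of the receptor for the fat-mobilizing adipokinetic hormone, at 21.5, 36.1, 21.6 and 23.8 RPKM against 4.57 to 16.2 in whole flies, was 3.57-fold higher and kept its call in 5 of 12 fits without 1 library (adjusted p = 0.0578 to 0.102 in the others). Of 9 markers of oenocytes, cells that make cuticular hydrocarbons, 3 were above both, *eloF* (an elongase of female hydrocarbons) at 194, 180.1, 102 and 235 RPKM against 49.0 to 85.2 in whole flies (3.44-fold, adjusted p = 0.00432). The summed fat body list was between 40857 and 85689 RPKM in adult tracheae, between 72.0 and 307 in larval tracheae and between 13880 and 17400 in whole flies. Most of the sums in adult tracheae and whole flies came from *Yp1*, *Yp2* and *Yp3*, which ovarian follicle cells also express. Their mean levels were 18933, 15234 and 25965 RPKM in adult tracheae and 2275, 3793 and 8999 in whole flies. These sums therefore mainly repeat the yolk protein genes.

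**Figure D3:**
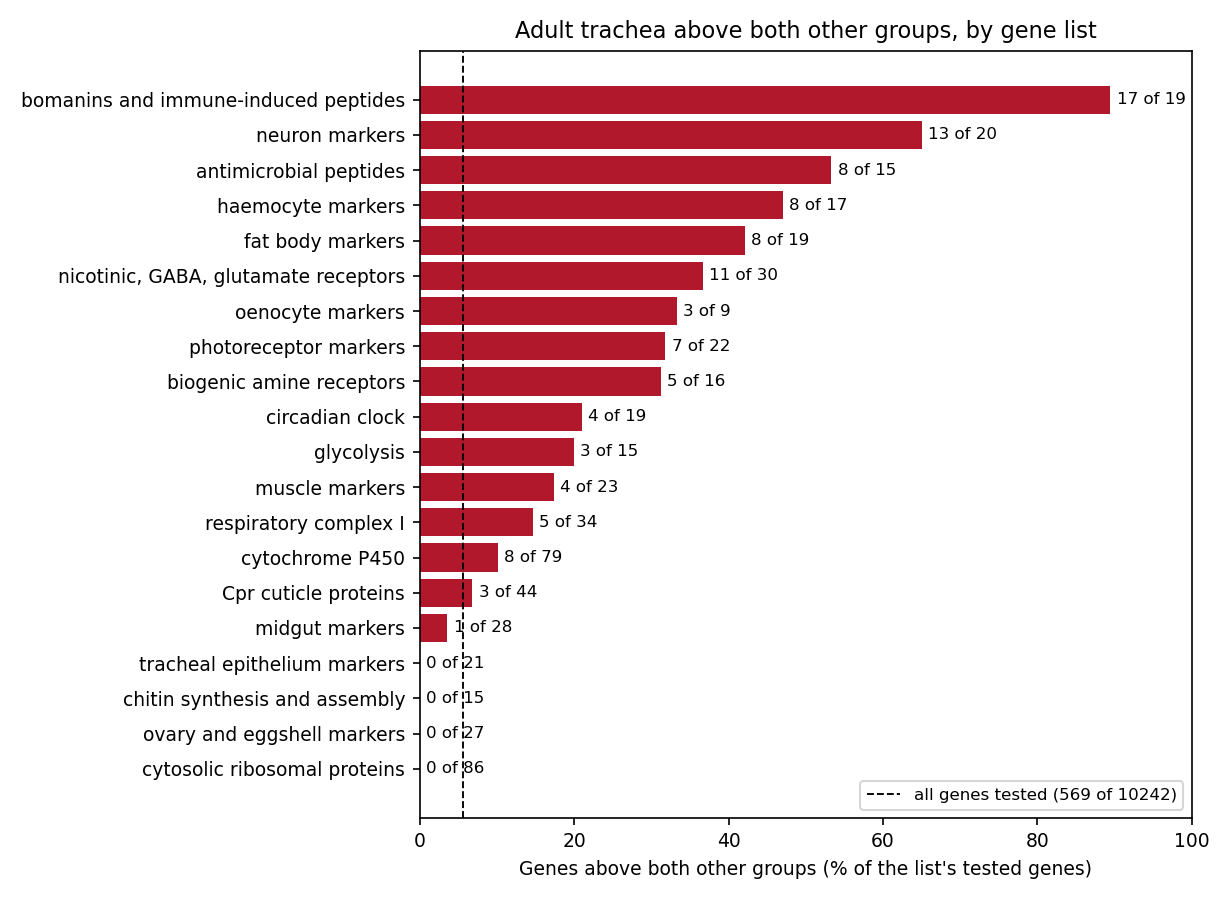
Bars give the share of each list's tested genes that were above both, with the counts printed, and the dashed line the 569 of 10242 among all genes tested. Bomanins and immune-induced peptides (17 of 19) and neuron markers (13 of 20) stand highest, and tracheal epithelium, chitin, ovary and cytosolic ribosomal protein lists at 0.

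Of 20 tested neuron markers 13 were above both, with medians of 4.49 over larval tracheae and 4.42 over whole flies on the log2 scale. *brp*, of the scaffold of the presynaptic active zone, was read at 0.393, 1.78, 1.99 and 0.501 RPKM in adult tracheae, 0 in larval tracheae and between 0.0413 and 0.111 in whole flies. No libraries overlapped (21.5-fold over whole flies, adjusted p = 0.00818). *nSyb*, of the synaptic vesicle SNARE, was at 7.88, 13.9, 18.2 and 2.17 RPKM against 0.409 to 2.09 in whole flies (12.2-fold, adjusted p = 0.00980). *Syt1*, of the calcium sensor of vesicle release, at 1.89, 8.34, 14.7 and 1.80 RPKM was 27.2-fold over whole flies, and not called without adult trachea replicate 3 (adjusted p = 0.0527). Without that library only 5 of the 20 neuron markers were above both. *elav*, the classical neuron marker, was not called over larval tracheae (adjusted p = 0.214), with 4.97% of its reads unique. The summed level of the list was 41.3, 157, 187 and 43.1 RPKM in adult tracheae, between 24.2 and 30.95 in larval tracheae and between 8.26 and 13.7 in whole flies.

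Receptors for transmitters followed the same libraries. Among 30 nicotinic, GABA and glutamate receptors 11 were above both (4 without adult trachea replicate 3), and among 16 biogenic amine receptors 5 (0 without that replicate, and 1 when replicate 2 of either the adult tracheae or the whole flies was left out). *nAChRalpha7*, an acetylcholine receptor subunit gene, was read at 1.65, 7.67, 10.1 and 1.04 RPKM in adult tracheae against at most 0.0252 in larval tracheae and 0.0723 in whole flies. It was 269-fold over whole flies (log2 fold change 8.07, SE 1.23, adjusted p = 0.000991) and called in every alternative. *Rdl*, the GABA-gated chloride channel gene, at 0.909, 8.67, 11.2 and 1.04 RPKM was 55.0-fold over whole flies (adjusted p = 0.00777). *DopEcR*, of a receptor for dopamine and ecdysone, at 1.45, 6.541, 7.07 and 0.681 RPKM was 20.4-fold over whole flies, and lost its call in 5 of 12 fits without 1 library (adjusted p = 0.0528 to 0.115). *5-HT1B*, a serotonin receptor gene, had 0 reads outside the adult tracheae and 0.145, 1.196, 0.813 and 0.688 RPKM within them (at least 23.7-fold and 36.5-fold higher, not called in 3 fits without 1 library, adjusted p = 0.0531 to 0.0563). *Dop1R1*, a dopamine receptor gene, at 0.200, 0.605, 1.11 and 0.333 RPKM was above both on exon reads, not called without replicate 3 (adjusted p = 0.0636), and had the opposite sign against the nearer group when all reads within the gene, introns included, were counted (log2 fold change of -0.79, adjusted p = 0.0437).

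Peptides, clock and eye genes completed this group. *Trissin*, a neuropeptide gene, was read at 1.41, 57.4, 40.0 and 4.33 RPKM in adult tracheae, not at all in larval tracheae and at up to 1.26 in whole flies (89.2-fold, adjusted p = 0.0168, and 0.0512 without whole fly replicate 2). *Pdf*, the peptide of the clock neurons, stood at 10.3, 75.7, 143 and 63.7 RPKM against 3.72 to 20.3 in whole flies, with replicate 1 inside that range (10.01-fold, adjusted p = 0.0202, and not called in 3 fits without 1 library, adjusted p = 0.0513 to 0.0698). Of 19 circadian clock genes 4 were above both, *Clk*, *Pdf*, *tim* and *vri* (1 without adult trachea replicate 3 and 2 without replicate 1). *Clk*, the activator of the clock, was at 0.948, 1.86, 3.43 and 0.630 RPKM against at most 0.154 elsewhere (61.5-fold over whole flies, adjusted p = 0.0158, and 0.0630 without adult trachea replicate 3). *tim*, one of the repressors, was at 10.8, 8.39, 5.30 and 1.92 RPKM against 0.0899 to 1.91 in whole flies (7.12-fold, adjusted p = 0.0200, and 0.0589 without adult trachea replicate 1). Of 22 photoreceptor markers 7 were above both (among the adult tracheae 4 without replicate 2 and 3 without replicate 3, and 2 when whole fly replicate 2 was left out). *Rh2*, the rhodopsin of the ocelli, was the largest of them at 10.3, 39.9, 699 and 112 RPKM against 0.270 to 8.96 in whole flies (59.2-fold, adjusted p = 0.00777). *ninaC*, an eye myosin kinase gene, was 7.32-fold and *trp*, the phototransduction channel gene, 4.11-fold above whole flies, each with no call in 2 fits without 1 library (adjusted p = 0.0557 and 0.0645, 0.0509 and 0.0548). The photoreceptor list summed to between 1416 and 2603 RPKM in adult tracheae, between 12.4 and 21.1 in larval tracheae and between 1118 and 1357 in whole flies.

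Flight muscle and energy metabolism lists held some genes above both, with smaller differences. Of 23 muscle markers 4 were above both, *TpnC4*, *Act88F* and *fln* of the flight muscle and *Zasp52* of the Z-disc. The count was 2 when adult trachea replicate 3 or whole fly replicate 2 was left out, 1 with the replicate block and 0 without adult trachea replicates 3 and 4 together, and *Zasp52* was not called in 8 of 12 fits without 1 library (adjusted p = 0.0542 to 0.121). *TpnC4*, the flight muscle troponin C gene, was read at 38.7, 20.7, 73.5 and 66.0 RPKM in adult tracheae, 0 in larval tracheae and between 6.93 and 11.6 in whole flies (7.65-fold, adjusted p = 0.00603, with 31.2% of its reads unique). *Act88F*, the flight muscle actin gene, was at 7.56, 22.9, 50.9 and 127 RPKM against 5.998 to 16.7 in whole flies, with replicate 1 inside that range (6.23-fold, adjusted p = 0.0161). *fln*, of the thick filament protein flightin, was 3.55-fold higher and not called in 3 fits without 1 library (adjusted p = 0.0610 to 0.0696). Of 15 glycolysis genes 3 were above both (1 when adult trachea replicate 3 was left out, or any of whole fly replicates 2, 3 and 4). The summed list was 3312, 2714, 3460 and 4498 RPKM in adult tracheae against 3674 to 4972 in whole flies. In RPKM, adult trachea replicates 1 to 3 thus lay under every whole fly library. On scaled counts the median log2 fold change of the list over whole flies was 0.68. *Ald*, the aldolase gene, at 705, 610.3, 1031 and 649.8 RPKM against between 103 and 291 in larval tracheae and between 161 and 334 in whole flies did not overlap either (3.37-fold and 4.57-fold, adjusted p = 0.00499 and 0.00321). *Gpdh*, of glycerol-3-phosphate dehydrogenase, was 8.88-fold over larval tracheae but 1.60-fold over whole flies (adjusted p = 0.0443), with overlap in RPKM, a call lost in 9 of 12 fits without 1 library (adjusted p = 0.0523 to 0.117). Of 34 respiratory complex I genes 5 were above both, while 32 were higher than in larval tracheae and 5 higher than in whole flies, a share near the 15.7% of all genes. The summed list was 7119, 7969, 7213 and 15458 RPKM in adult tracheae against 9087 to 10389 in whole flies. Adult trachea replicates 1 to 3 thus again lay under every whole fly library in RPKM. On scaled counts the median log2 fold change of the list over whole flies was 0.37. The count above both, 5, was 0 when whole fly replicate 2 or 3 was left out, 2 when whole fly replicate 1 or 4 was, 2 when adult trachea replicate 3 or 4 was and 3 when larval trachea replicate 1, 2 or 4 was, and it was 14 with an offset for exon length. *ND-B8*, one of them, was at 58.4, 70.6, 39.7 and 162 RPKM against 18.8 to 44.8 in whole flies and had 0 reads in larval tracheae (3.54-fold over whole flies, adjusted p = 0.0256, and not called in 4 fits without 1 library, adjusted p = 0.0501 to 0.0684). Of 86 cytosolic ribosomal protein genes 0 were above both, also at an unadjusted p under 0.05 and by DESeq2.

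Detoxification, matrix and hormone genes held further members. Of 79 cytochrome P450 genes 8 were above both (5 when adult trachea replicate 3 or whole fly replicate 2 was left out). *Cyp6a20* was read at 15.6, 31.4, 36.6 and 11.0 RPKM in adult tracheae, between 0.928 and 2.10 in larval tracheae and between 2.24 and 4.11 in whole flies, with no overlap (11.9-fold over whole flies, log2 fold change 3.57, SE 0.56, adjusted p = 0.00111). *Cyp6d5* stood far higher at 326, 1002, 699.9 and 428 RPKM against 90.6 to 177 in whole flies (7.16-fold), with 15.9% of its reads unique, and *Cyp6a2*, a gene of insecticide metabolism, was 6.15-fold over larval tracheae with 5.29% unique and no call on unique reads. In the basement membrane 3 of 15 genes were above both. *SPARC*, of a collagen-binding protein, was at 939.9, 232, 201 and 177 RPKM against 59.5 to 139 in whole flies (6.86-fold, adjusted p = 0.0213, and 0.0542 to 0.0739 in the 4 fits without 1 library that lost it), and *Timp*, the inhibitor of matrix metalloproteases, was 4.73-fold higher. *Spn88Eb*, a serpin gene, at 136, 345, 37.7 and 39.1 RPKM was 12.3-fold over whole flies (adjusted p = 0.00672), and *Mal-B1*, a maltase gene, at 454, 11.5, 213 and 119.6 RPKM was 47.0-fold, with 7.49% of its reads unique. Of 44 Cpr cuticle protein genes 25 were lower than in larval tracheae and 3 above both (0 without whole fly replicate 2, 3 or 4, and 1 without whole fly replicate 1 or adult trachea replicate 3). *Cpr62Bb* stood at 31.8, 41.8, 302 and 195 RPKM, 10.7-fold over whole flies, and was not called in 5 fits without 1 library (adjusted p = 0.0586 to 0.137). *Eip93F*, which encodes the transcription factor E93 that specifies the adult at metamorphosis, was at 4.77, 14.2, 9.98 and 1.94 RPKM against at most 0.0965 in larval tracheae and between 0.920 and 2.04 in whole flies (180.4-fold and 8.67-fold, adjusted p = 3.03e-05 and 0.00816).

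Among further genes above both, *Dat*, *CG2736*, *Tps1*, *LpR2* and *Jheh1* kept their call whichever library was left out. Under the other alternatives *Jheh1* lost its call in 5, *LpR2* in 4 and *Tps1* in 2, limma fits among them each time. *Dat*, which encodes the enzyme that acetylates dopamine and other amines, was read at 73.2, 105 and 131 RPKM in adult trachea replicates 1 to 3 and at 110.7 in replicate 4. Whole flies held between 18.8 and 36.5 RPKM and larval tracheae between 2.85 and 7.64, so that neither overlapped (5.08-fold over whole flies, adjusted p = 0.00191). *CG2736*, a predicted CD36-like receptor gene, was at 66.8, 99.4, 55.1 and 114 RPKM, against between 11.7 and 21.1 in whole flies and 1 larval read (7.25-fold over whole flies, adjusted p = 0.000473). *Tps1*, the gene of trehalose synthesis for the haemolymph, was at 417, 549.6, 194 and 286 RPKM and nearly unread in larval tracheae, but only 2.88-fold over whole flies (adjusted p = 0.00672), with replicate 3 inside their range in RPKM. *LpR2*, of a lipophorin receptor, at 38.7, 91.2, 19.1 and 10.04 RPKM was 4.46-fold over whole flies, and *Jheh1*, a second juvenile hormone epoxide hydrolase gene, was 2.08-fold over both groups while *Jheh3* was lower than in both. Of 13 glia markers 3 were above both (1 when replicate 2 or 3 of the adult tracheae or replicate 2 of the whole flies was left out, and 5 when adult trachea replicate 1 was), *Eaat1*, the glutamate transporter gene of glia, among them at 33.96, 109, 103 and 28.97 RPKM against between 21.2 and 23.2 in whole flies (4.43-fold, adjusted p = 0.0264, and 0.0546 to 0.0759 in the 6 fits without 1 library that lost it).

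The genes below both were fewer, and only 13 of the 109 belonged to any gene list used here. *Df31*, a gene of a chromatin decondensation factor, was read at 95.4, 114, 18.8 and 96.5 RPKM in adult tracheae, between 335 and 429 in larval tracheae and between 416 and 547 in whole flies. All adult libraries lay under all others, 5.30-fold and 4.69-fold lower (log2 fold change -2.41, SE 0.35, adjusted p = 0.000167, and -2.23, SE 0.35, adjusted p = 0.00116). *HmgD*, of an abundant DNA-bending chromatin protein, was at 50.5, 146, 14.5 and 145 RPKM against 164 to 411 and 532 to 766, and *x16*, of a splicing factor, at 3.05, 6.47, 1.12 and 5.68 RPKM against 10.8 to 14.5 and 35.7 to 60.6. *HmgD* was 3.54-fold and 6.08-fold lower and *x16* 3.71-fold and 9.42-fold lower than in larval tracheae and whole flies. In each of these genes replicate 3 was the lowest library. *O-fut1*, the enzyme that puts O-fucose on Notch, was 4.29-fold and 3.37-fold lower at 11.8, 14.9, 6.43 and 16.2 RPKM, and *mol*, of a maturation factor for dual oxidase, 3.56-fold and 5.70-fold lower. *stg*, the Cdc25 phosphatase that drives entry into mitosis, was the sole member of 26 cell cycle genes below both (2.86-fold and 3.00-fold lower, not called without adult trachea replicate 4 or larval trachea replicate 3, adjusted p = 0.0599 and 0.0502).

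*CG8560*, a predicted metallocarboxypeptidase gene, was read at 0, 0.0879, 0 and 0.0491 RPKM in adult tracheae, from 2 reads, against between 19.8 and 85.2 in larval tracheae and between 30.4 and 172 in whole flies. These few reads gave ratios, with intervals for counting error only, of 1644 for larval tracheae (95% counting interval 455 to 13577) and 2186 for whole flies (605 to 18053). *Obp56a*, an odorant-binding protein gene, was at 4.98, 0.252, 0 and 0 RPKM against between 139.5 and 309 in larval tracheae and between 22.8 and 34.6 in whole flies, 213-fold and 20.6-fold lower (adjusted p = 0.000141 and 0.00936). In the juvenile hormone and ecdysone list 2 of 25 genes were below both. *CG1124*, named *Jhbp1* in the current annotation, was at 5.06, 8.38, 3.59 and 10.8 RPKM against 32.7 to 115.5 and 34.6 to 49.8, and *Jheh3*, a juvenile hormone epoxide hydrolase gene, at 7.90, 8.73, 15.9 and 22.99 RPKM against 183 to 435 and 48.3 to 67.0. *Jheh3* was 21.0-fold and 2.79-fold lower (adjusted p = 7.01e-06 and 0.0180), without overlap. *Obp56d* was steadier than *Obp56a*, at 64.1, 64.5, 22.7 and 39.1 RPKM against 248 to 323 and 134 to 172 (6.96-fold and 2.46-fold lower, adjusted p = 9.55e-06 and 0.00663). Of 20 genes of septate junctions, the seals between epithelial cells, 16 were lower than in larval tracheae and 11 higher than in whole flies, and *crok* alone was below both (2.82-fold and 1.90-fold lower, adjusted p = 0.0679 without whole fly replicate 2). *Eglp2*, a glycerol channel gene, was 5.19-fold and 4.62-fold lower but not called in 6 of 12 fits without 1 library (adjusted p = 0.0519 to 0.0827). *Jon66Ci*, a midgut protease gene, had 1 read in adult tracheae and 21 in larval ones, of which 1 library held nearly all, and its call was lost in 7 of 12 fits without 1 library (adjusted p = 0.0527 to 0.749, the highest without larval trachea replicate 1), those without each adult trachea replicate among them. Of 28 tested midgut markers it alone was below both, while 1 was above both and 15 were higher than in larval tracheae.

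**Figure D4:**
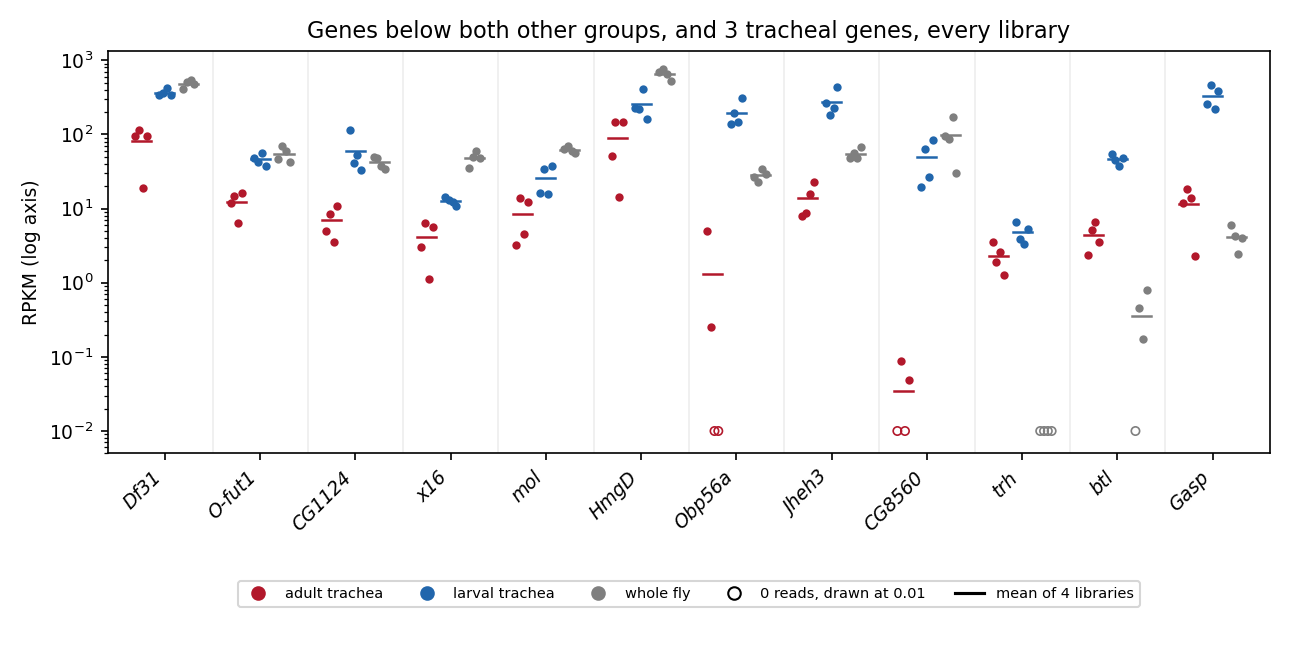
RPKM on a log axis in each of the 12 libraries for 9 genes below both and for *trh*, *btl* and *Gasp*. Points are libraries, bars the mean of 4, and open points libraries with 0 reads. The adult trachea points of *Df31* (18.8 to 114 RPKM) lie under all others, whereas those of *btl* (2.35 to 6.59) lie between the groups.

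Ovarian and egg genes were called in the contrast with the mean but not against each group. Of 27 tested ovary and eggshell markers 13 were called higher in that contrast, but 24 were higher than in larval tracheae, 5 were lower than in whole flies and 0 were above both, also at an unadjusted p under 0.05 and by DESeq2. *gnu*, a regulator of the first embryonic nuclear cycles that is laid down in the egg, was read at 31.6, 77.7, 6.95 and 146 RPKM in adult tracheae, 0 in larval tracheae and between 329.7 and 448 in whole flies. It was at least 446-fold over larval tracheae and 4.77-fold under whole flies (adjusted p = 0.0242). *BigH1*, the embryonic linker histone gene, was alike at 34.4, 27.1, 2.93 and 54.5 RPKM against 128 to 199 in whole flies (4.57-fold lower, adjusted p = 0.0227). The summed ovary and eggshell list was 9187, 366, 127 and 15194 RPKM in adult tracheae, between 3.40 and 19.4 in larval tracheae and between 13993 and 34759 in whole flies, so that adult trachea replicates 1 and 4 stood far above replicates 2 and 3. In the opposite case *CG15353* stood at 104997 to 122812 RPKM in larval tracheae, 29.1 to 365 in adult tracheae and between 21.9 and 108 in whole flies. It was 674-fold under larval tracheae and 5.49-fold over whole flies (adjusted p = 0.0266), and *nw* was likewise 711-fold under and 7.29-fold over. Of 28 midgut markers 15 were higher than in larval tracheae and 16 lower than in whole flies.

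**Figure D5:**
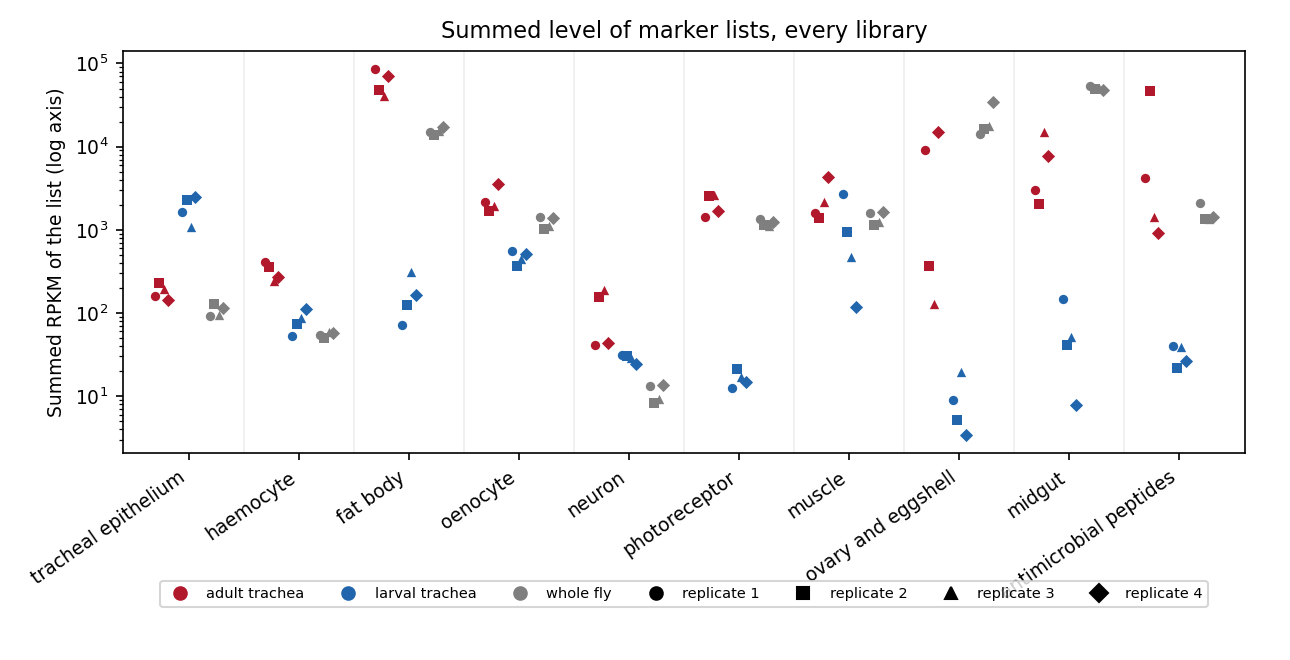
Summed RPKM of 10 gene lists in each of the 12 libraries on a log axis, with symbols for the replicates. Haemocyte, fat body, oenocyte, neuron and photoreceptor sums of adult tracheae lie above both other groups in every library. In adult tracheae and whole flies the fat body sums are mostly those of the yolk protein genes. Ovary and eggshell sums run from 127 to 15194 RPKM among the adult trachea libraries, and tracheal epithelium sums lie between 142 and 227, well below the larval ones.

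Genes above both were found on all major chromosomes, with 21.6% on 2L (17.98% of tested genes), 22.8% on 2R (20.7%), 15.99% on 3L (19.5%), 24.96% on 3R (24.9%) and 13.4% on X (16.2%). Of the 569, 160 stood next to another member in 70 runs of adjacent tested genes, and 242 (42.5%) still bore a CG or CR symbol, as did 43.1% of tested genes. In 102 (17.9%) fewer than 50% of the adult trachea exon reads were unique, against 12.9% of tested genes. At the threshold of the weaker comparison stood *nolo* (3.23, 2.71, 3.05 and 0.949 RPKM in adult tracheae, adjusted p = 0.0496) and *Zasp52* (9.83, 3.99, 9.40 and 8.25 RPKM, 0.04998) just inside, and *CG34155* (0.371, 0.105, 0.255 and 1.56 RPKM) and *Adi1* (240.3, 269.7, 123 and 204.8 RPKM) just outside, both at 0.0501. Below both, *Su(var)205*, the heterochromatin protein 1 gene (27.2, 61.5, 14.9 and 70.6 RPKM, 0.0497), and *Cht2*, a chitinase gene (7.30, 9.06, 2.95 and 26.2 RPKM, 0.0499), were just inside, and *jagn* (37.9, 43.0, 27.5 and 39.9 RPKM, 0.0508) and *Osi19* (0 reads in adult tracheae, 0.0515) just outside.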

How the data were processed

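Poly(A) RNA of 12 libraries (3 animals each) was copied into PCR-amplified cDNA and sequenced, and the authors mapped the reads to BDGP6 and counted them in CLC Genomics Workbench, of a version that the sources used here do not give. The deposited tables hold total and unique exon read counts, total gene read counts and RPKM per gene. RPKM was used for levels and total exon counts for tests. Whole-fly RNA had been diluted, and molecular identifiers were not stated. Library depths stand in the report. No strand setting was stated, so overlapping genes on opposite strands cannot be told apart.

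Genes with at least 10 exon reads in at least 2 libraries were tested with edgeR 4.0.16 (R 4.3.3, TMM scaling, quasi-likelihood, 3 groups, weights 1, -0.5 and -0.5), with Benjamini-Hochberg adjustment over all of them, an adjusted p under 0.05 and a fold above 1.5. Fits were tested on simulated counts. Alternatives used DESeq2 1.42.0 and limma 3.58.1, among others. Genes were named by rule: the 12 largest differences from the nearer group with 4 libraries apart and at least 10 RPKM, the 10 most abundant, up to 4 per list, 7 label markers, the 2 on each side of the threshold and the 3 largest with opposite calls. *trp*, *nSyb*, *brp*, *IM2*, *Hml*, *5-HT1B*, *Dop1R1* and the further list members named without values were chosen after their values were seen. Members and lists were chosen with earlier results of these data known. Genes without an exon length were left out of the main test.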

Additional observations from a re-analysis of the deposited data

Results flagged for a closer look

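Of 324 groups of 4 libraries, 37 held 1 library far from the other 3 on the log2 scale of scaled counts, where chance flags about 1 in 20 groups. That rate does not hold for groups with hardly any reads, where 1 read can set a library apart. This was so for *Jon66Ci* in adult tracheae and for *CG2736* and *CG33109* in larval ones. In adult tracheae the lowest library was flagged for *Df31* (replicate 3, 18.8 RPKM) and *PPO2* (replicate 2, 39.0 RPKM). The highest was flagged for *ND-B8* (replicate 4, 162 RPKM), *Jheh1* (replicate 3, 270.5 RPKM), *Obp56a* (replicate 1, 4.98 RPKM) and *Jon66Ci* (replicate 4, 0.0918 RPKM).

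In larval tracheae the highest library stood apart for *Nplp2* (222 RPKM), *Ilp6* (0.578), *AkhR* (0.313), *Spn88Eb* (0.418), *eloF* (0.214), *CG2736* (0.115), *fln* (0.153) and *CG11668* (0.148), each in replicate 3. The same held for *Cpr62Bb* (3.58 RPKM), *Eaat1* (0.273), *ninaC* (0.271) and *Act88F* (0.0767) in replicate 4, for *Rh2* (0.107), *nAChRalpha7* (0.0252) and *tim* (0.0236) in replicate 1 and for *CG33109* (0.136) in replicate 2. The lowest library stood apart for *nw* (130.0 RPKM), *whe* (2.57) and *NLaz* (2.18), each in replicate 2, and for *SPE* (9.75) in replicate 3.

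In whole flies the highest library stood apart for *Tps1* (206.6 RPKM), *SPARC* (139) and *Ppn* (5.76) in replicate 4, *Eip93F* (2.04) and *Clk* (0.154) in replicate 3, *IM23* (1.95), *Ilp6* (0.545) and *Dop1R1* (0.00695) in replicate 2 and *nw* (0.213) in replicate 1. The lowest stood apart for *Rh2* (0.270 RPKM, replicate 4) and *tim* (0.0899, replicate 1).

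Genes listed without an exon length entered no comparison of the report. On total gene reads 15 of 306 tested genes of this kind were above both groups, among them the mitochondrial *COX1*, *CYTB*, *ND1*, *ND4* and *ND6* and the long non-coding RNA gene *CR31451*, and 0 were below both.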

How the results depend on the processing

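Of 93 named genes above or below both, 47 kept their call under all 27 alternatives that gave them a p, and 153 genes above both and 22 below both were called under every alternative. DESeq2 called 883 genes above both. Genes below both numbered 51 with each pair of groups fitted alone, 39 when tested against the fold itself, 67 with the replicate block and 275 with an exon length offset. Genes lower in the contrast with the mean numbered 203 against the fold itself, 287 with the replicate block, 839, 992 and 766 with limma on log2(RPKM + 0.1), log2(RPKM + 1) and unfiltered log2(RPKM + 0.1), and 1016 with the length offset. The share of higher calls there, 80.3%, was 65.1, 59.7, 67.5 and 63.1% under the last 4. Without 1 library, genes above both numbered 356 to 667, below both 69 to 174, higher in the contrast with the mean 1473 to 2187 and lower 322 to 685. The median of all genes in that contrast was 0.13, and 0.26 with RLE factors, 0.25 with DESeq2 and -0.11 with limma at 0.1. On total gene reads *CG40006* was 0.95 and *Dop1R1* -0.79 against the nearer group, opposite to their main sign, and the cause was not tested. The replicate numbers did not pair the samples (correlations of deviations -0.087 to 0.043), and with the replicate block 387 genes were above both, 370 of them also in the fit without it. Depth limited the low genes: 3 reads were 0.234 to 0.710 CPM in adult tracheae.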
